A study of Mus musculus with 12 samples.

Results

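In all, 7 genes of the leukocyte adhesion cascade were followed in whole mouse lung: the selectin genes Sele and Selp, the selectin ligand gene Selplg, the immunoglobulin-family genes Icam1, Icam2 and Vcam1, and the junction gene Pecam1. They were chosen by name, and all 7 were found among the 23127 genes of the deposited table, each as a single row. The lungs came from 12 C57BL6/J mice in 3 groups of 4. The groups were a control at 0 weeks, whose diet the labels do not describe, and mice given L-NAME with a high-fat diet for 2 weeks or for 5 weeks. L-NAME, an inhibitor of nitric oxide synthase, was dissolved in the drinking water at 0.5 g/L, and 60% of the diet was lipid. The combination serves as a mouse model for heart failure in which ejection fraction is preserved, and the labels do not state the age or sex of the mice. Both exposures were always given together and the only control group was the one at 0 weeks, so the effects of L-NAME, of the diet and of time on study cannot be told apart.

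Leukocytes leave the blood in steps. P-selectin (Selp), stored in platelet granules and in the Weibel-Palade bodies of endothelium, and E-selectin (Sele), made by endothelium after exposure to IL-1 or TNF, catch rolling leukocytes through glycosylated ligands such as PSGL-1 (Selplg), which is carried by the leukocytes themselves. Chemokines then activate leukocyte integrins, which bind ICAM-1, ICAM-2 and VCAM-1 and arrest the cell, and PECAM-1 at endothelial junctions takes part in the passage between cells. In the lung much of this traffic runs through the capillaries, and ICAM-1 is also abundant on alveolar type 1 epithelium.

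The read depth, estimated from the spacing of low values, was 25860000 to 33970000 reads per library. Values are CPM, the reads of a gene scaled to a common library total. Each library carries its own mouse number in the labels. Alveolar type 1 markers summed to 8364 CPM or more and alveolar type 2 markers to 24628 CPM or more in every library. All 20 endothelial marker genes were tested, with summed levels of 7812 to 9816 CPM in the controls, 8939 to 9655 CPM after 2 weeks and 7884 to 9126 CPM after 5 weeks. Leukocyte content was less even: 10 pan-leukocyte genes, such as Ptprc (CD45), summed to 624 to 1027 CPM in the controls, 591 to 1111 CPM after 2 weeks and 1019 to 1424 CPM after 5 weeks. None of the endothelial or pan-leukocyte marker genes was at 0 in any library. The 2-week replicate 4 stood at 1111 CPM on that pan-leukocyte sum, against 591 to 664 CPM in the other 2-week libraries, and the control replicate 3 stood at 624 CPM, against 848 to 1027 CPM in the other controls. Control replicate 2, 2-week replicate 3 and 5-week replicate 3 had stood apart on principal components in an earlier analysis of these data, and leaving these 3 out together brought no gene past the threshold. Where 1 library turned the sign of a member's difference from the controls, the value without it is given.

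Promoter windows were available for Icam1, Sele and Selp, and are shown because these genes, all known to respond to inflammatory signals in endothelium, differed by orders of magnitude in level, and Sele alone of the 3 had treated and control values that did not overlap at 5 weeks. Each window runs from 250 bases before to 50 bases after the annotated start and is read from RefSeq on GRCm38.p6, plus strand. They lie at chr9:21015690-21015989 for Icam1, chr1:164047984-164048283 for Sele and chr1:164115014-164115313 for Selp. Capitals mark matches, on either strand, to 5 motifs. They are a canonical kappaB motif (GGGRNNYYCC), a relaxed kappaB motif (HGGARNYYCC), TTCNNNGAA (STAT type), TGANTCA (AP-1 type) and TATAAA. R is A or G, Y is C or T, H is any base but G, and N is any base. The kappaB motifs stand for sites of NF-kB. Other kappaB variants were not searched, so a window with no kappaB match may still hold one.
Icam1: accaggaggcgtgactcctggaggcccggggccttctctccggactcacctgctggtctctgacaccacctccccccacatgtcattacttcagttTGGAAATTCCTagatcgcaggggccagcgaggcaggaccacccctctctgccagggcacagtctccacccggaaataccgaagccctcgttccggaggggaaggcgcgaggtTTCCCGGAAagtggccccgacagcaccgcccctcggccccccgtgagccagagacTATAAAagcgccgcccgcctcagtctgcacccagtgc
Sele: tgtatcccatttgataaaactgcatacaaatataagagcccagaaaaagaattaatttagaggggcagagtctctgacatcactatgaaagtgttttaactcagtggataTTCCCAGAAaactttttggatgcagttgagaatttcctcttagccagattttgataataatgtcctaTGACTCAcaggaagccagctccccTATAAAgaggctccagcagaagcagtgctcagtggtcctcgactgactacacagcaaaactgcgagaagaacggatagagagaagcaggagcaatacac
Selp: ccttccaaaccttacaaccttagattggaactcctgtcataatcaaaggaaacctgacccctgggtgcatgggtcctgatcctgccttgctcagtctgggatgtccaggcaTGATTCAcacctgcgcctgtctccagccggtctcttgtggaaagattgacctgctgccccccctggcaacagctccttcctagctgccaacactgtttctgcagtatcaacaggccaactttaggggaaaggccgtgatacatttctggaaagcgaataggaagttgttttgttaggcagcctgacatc

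Counted without a 0, so that the first base after the start is 1, the Icam1 window held a relaxed kappaB match at -154 to -145, overlapped by a second one on the other strand at -153 to -144, a STAT-type palindrome at -42 to -34, and a TATAAA at 14 to 19. The Sele window held a STAT-type match at -140 to -132, an AP-1-type match at -73 to -67 and a TATAAA at -49 to -44. The Selp window held one match, of the AP-1 type, at -139 to -133. None of these 3 windows held the canonical kappaB motif. Of all 32851 RefSeq promoter windows of this length, 8.5% held the canonical and 8.4% the relaxed kappaB motif, 8.3% TTCNNNGAA, 7.8% TGANTCA and 13.6% TATAAA. A match is a run of letters and not a measured binding site.

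**Figure D1:**
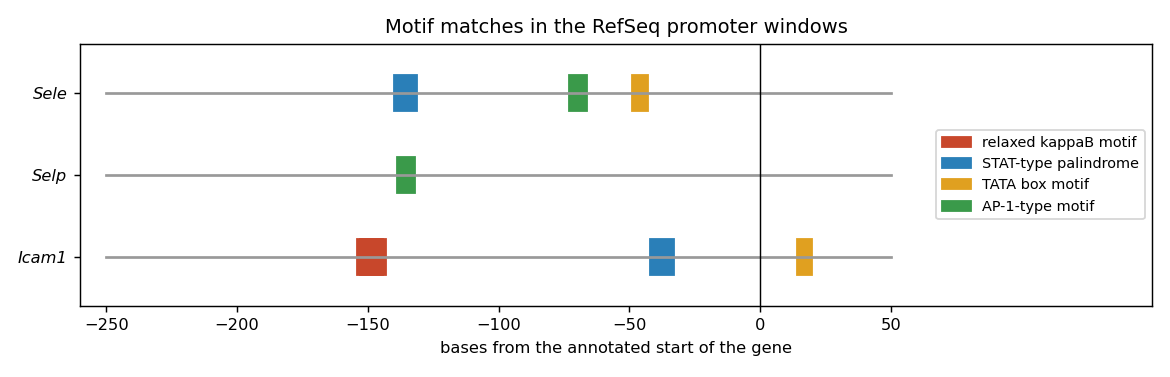
Positions of motif matches in the RefSeq promoter windows of Sele, Selp and Icam1, in bases from the annotated start (vertical line). Coloured boxes are matches on either strand to the 5 motifs searched, so other kappaB variants are not marked. Icam1 is the gene with a relaxed kappaB match, at -154 to -144, and Selp has a single match, of the AP-1 type.

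Per kilobase of the principal transcript, the levels of the 7 genes spanned a wide range. By CPM, 99.6% of all genes were below Pecam1 and 31.6% below Sele. Pecam1 averaged 256 ± 16.2 CPM per kb over the 12 libraries (SD), Icam1 205 ± 14.7, Icam2 141 ± 11.2, Selplg 30.8 ± 10.3, Vcam1 24.96 ± 2.26, Selp 1.25 ± 0.268 and Sele 0.295 ± 0.143. Pecam1 stood above Icam1 and Icam1 above Icam2 within all 12 libraries, although the ranges of Pecam1 and Icam1 over libraries overlapped. Selplg exceeded Vcam1 in 8 of 12 libraries, and this order varied with the group. At 5 weeks Selplg stood at 31.9 to 47.6 CPM per kb and Vcam1 at 23.9 to 26.9, with no overlap. At 2 weeks they overlapped, at 16.0 to 35.3 and 21.3 to 29.2. In the controls they also overlapped, at 20.6 to 37.0 and 23.6 to 27.7. Selp was above Sele in 12 of 12. The order of the means over all libraries was the same when the union of all exons was used as the length. Transcript lengths are those of GENCODE M21, which is not stated to be the annotation used for counting.

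The genes also differed in how far they spread over the libraries, which takes in differences between groups as well as between mice. Over all 12 libraries, the coefficient of variation of the CPM was 6.34% for Pecam1, 7.18% for Icam1, 7.92% for Icam2 and 9.05% for Vcam1. It was 21.4% for Selp, 33.5% for Selplg and 48.6% for Sele. Within groups, Sele had an SD of 0.0937 CPM on a mean of 1.29 CPM in the controls. The SD was 0.421 on 0.668 CPM at 2 weeks and 0.283 on 0.619 CPM at 5 weeks.

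**Figure D2:**
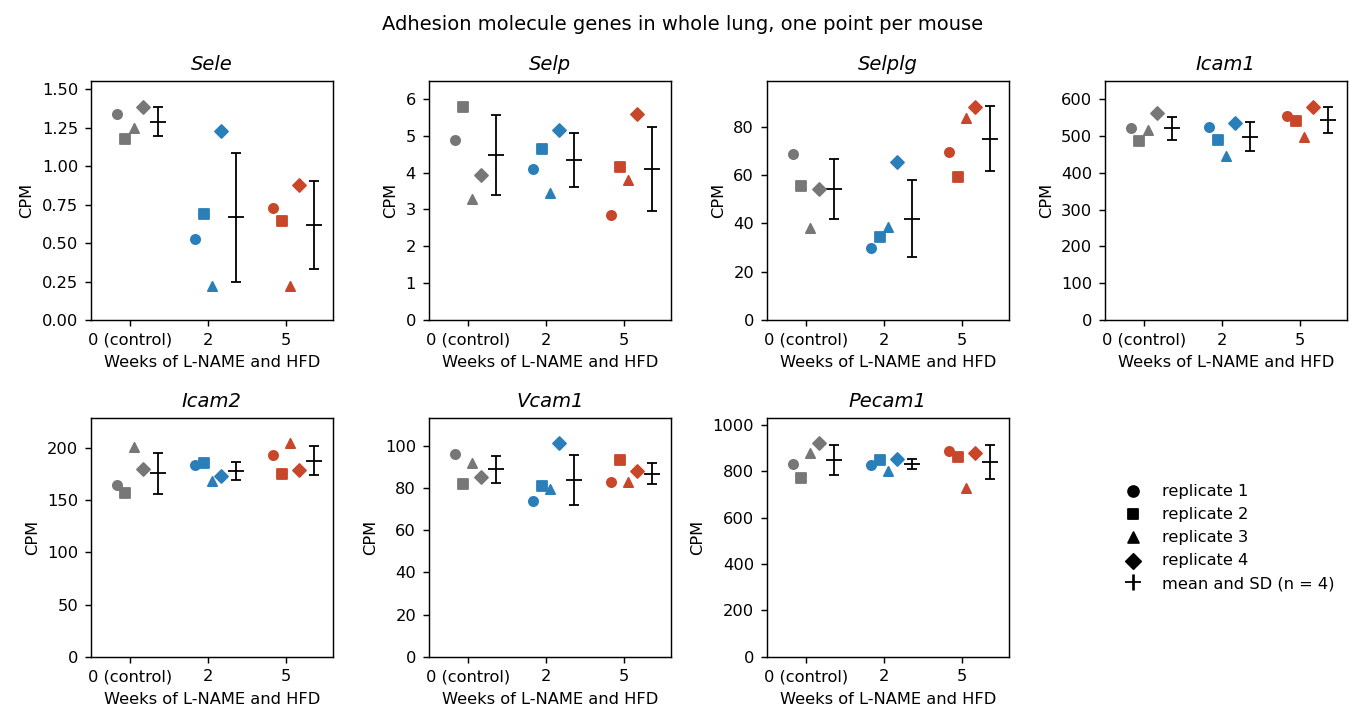
CPM of the 7 genes in each mouse at 0 (control), 2 and 5 weeks of L-NAME and high-fat diet (HFD); each point is a library, its shape the replicate, and bars are mean and SD (n = 4). Sele lies below all controls in 7 of 8 treated mice, Selplg is highest at 5 weeks, and Icam1, Icam2, Vcam1 and Pecam1 stay within narrow ranges.

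Group differences were estimated with limma on log2(CPM + 1), adjusted by Benjamini-Hochberg over all genes tested, beside exact two-sided permutation tests whose smallest possible p with 4 against 4 mice is 0.0286. A fold on this scale understates the change of a gene with few reads. No gene passed an adjusted p of 0.05 in any of the comparisons: limma called 0 of 15562 genes (0%) at 2 against 0 weeks, at 5 against 0 weeks and at 5 against 2 weeks, with 1438 (9.24%), 1343 (8.63%) and 1696 (10.9%) genes at an unadjusted p under 0.05. None of the 6 members that passed the filter of a mean of 1 CPM was called either, and no member passed the F-test over the 3 groups, which called 0 of 15562 genes. Sele, at a mean of 0.859 CPM, was below that filter and is read from the same fit run over all 23127 genes, which called 0 genes (0%) in each comparison, with 1814, 1701 and 2114 at an unadjusted p under 0.05. Below, a member is therefore described by its values, its interval and its overlap between groups.

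Sele, which encodes E-selectin (chromosome 1, 163875803 to 163885246 as the table places it, in a build that the table does not name), was the member whose treated and control mice separated most clearly. It had 1.34, 1.18, 1.25 and 1.39 CPM in control replicates 1 to 4. It had 0.530, 0.691, 0.224 and 1.23 CPM in the 2-week mice and 0.730, 0.646, 0.219 and 0.879 CPM in the 5-week mice. The controls lay within a narrow band, 7 of 8 treated mice were below it, and 2-week replicate 4 was within it. These values are few reads: about 7 to 30 per library at 5 weeks and 7 to 37 at 2 weeks, against 31 to 44 in the controls. At so few reads the width of the control band is itself uncertain. How many other genes had 7 of 8 treated mice below every control was not counted.

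At 5 weeks Sele averaged 0.619 ± 0.283 CPM against 1.29 ± 0.0937 CPM in the controls (SD, n = 4), a ratio of 0.479, and the groups did not overlap. The exact permutation p was 0.0286, the smallest possible, whereas the limma difference of -0.52 ± 0.17 (log2, SE) had an adjusted p of 0.587. Its 95% interval ran from -0.88 to -0.15. Of all 23127 genes, 4.42% had groups that did not overlap in this comparison and 1.45% did so with the treated mice lower, so Sele is one of 336 such genes.

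At 2 weeks Sele averaged 0.668 ± 0.421 CPM against 1.29 ± 0.0937 CPM in the controls (SD, n = 4), a ratio of 0.518, with overlap through replicate 4 alone (limma -0.49 ± 0.17, adjusted p = 0.528, exact permutation p = 0.0571). Between 5 and 2 weeks it differed by -0.03 (95% interval -0.39 to 0.34, adjusted p = 0.978). Without 5-week replicate 3, the library with the lowest Sele, the difference from the controls at 5 weeks was -0.39 (adjusted p = 0.919). Set against the mean of the 20 endothelial markers in the same library, Sele was lower by 0.48 at 5 weeks than in the controls, again with no overlap (exact permutation p = 0.0286, limma adjusted p = 0.998), where 1.59% of all genes do not overlap on that scale. In bulk tissue, fewer cells that express a gene and less RNA per cell cannot be told apart. Summed endothelial markers ranged over 7884 to 9126 CPM in the 5-week mice and 7812 to 9816 CPM in the controls. Venous endothelial markers, such as Vwf and Nr2f2, summed to 1480 to 1852 CPM in the 5-week mice and 1698 to 2145 CPM in the controls, with none of the 10 genes at 0. The largest drop in mean CPM on that list was that of Lyve1, also a marker of lymphatic endothelium. Lyve1 stood at 238 ± 49.6 CPM against 372 ± 88.3 CPM in the controls (SD, n = 4). The list sum therefore does not measure venous endothelium alone. Vwf averaged 433 ± 74.3 against 452 ± 42.5 CPM, and Nr2f2 was higher, at 145 ± 6.19 against 134 ± 7.53 CPM. Ackr1 was below the filter, at 0.242 ± 0.219 against 0.690 ± 0.943 CPM. Its values overlapped, at 0.0385 to 0.539 CPM at 5 weeks and 0.113 to 2.10 CPM in the controls. Of 9 tested venous markers, 2 had a positive difference at 5 against 0 weeks, with a median of -0.16 on the log2 scale and none called. Their part in the Sele values was not tested.

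Selp, which encodes P-selectin and lies 57587 bases beyond Sele on chromosome 1 (163942833 to 163977595), gave no separation. It had 4.88, 5.79, 3.29 and 3.94 CPM in the controls, 4.11, 4.64, 3.45 and 5.15 CPM at 2 weeks, and 2.84, 4.16, 3.796 and 5.596 CPM at 5 weeks. All 3 groups overlapped broadly. The limma differences were -0.03 (95% interval -0.42 to 0.37, adjusted p = 0.971) for 2 against 0 weeks and -0.11 (-0.50 to 0.29, adjusted p = 0.865) for 5 against 0 weeks. Between 5 and 2 weeks it differed by -0.08 (-0.48 to 0.31, adjusted p = 0.920). The sign of these small differences rested on single libraries. At 2 against 0 weeks it was 0.09 without control replicate 2, 0.02 without control replicate 1 and 0.06 without 2-week replicate 3. At 5 against 0 weeks it was 0.003 without control replicate 2 and 0.02 without 5-week replicate 1, and without the 3 libraries named above it was 0.17 at 2 weeks and 0.02 at 5 weeks.

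Platelets also carry Selp transcripts. Of 12 tested platelet and megakaryocyte genes, 11 had a positive difference at 5 against 0 weeks, with a median of 0.49 on the log2 scale, where the median of all genes tested was 0.02 and 0 platelet genes were called. Their summed level was 79.9 to 138 CPM at 5 weeks, 70.01 to 72.6 CPM at 2 weeks and 61.6 to 92.9 CPM in the controls, and none of the 13 genes was at 0 in any library. The 138 CPM came from 5-week replicate 3, and the other 5-week libraries, at 79.9 to 91.0 CPM, lay within the control range. That replicate also had the highest summed red cell genes (16211 CPM). All 6 tested red cell genes had a positive difference at 5 against 0 weeks, with a median of 1.45, and 0 were called. Relative to the platelet list Selp differed by -0.55 at 5 against 0 weeks (limma adjusted p = 0.134, exact permutation p = 0.2). The part of platelets in the Selp values was not tested.

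Selplg, which encodes PSGL-1, the main P-selectin ligand of leukocytes (chromosome 5, 113956597 to 113970705), showed the widest movement between 2 and 5 weeks. It had 68.7, 55.5, 38.2 and 54.3 CPM in the controls. It had 29.7, 34.3, 38.5 and 65.5 CPM at 2 weeks and 69.4, 59.2, 83.5 and 88.3 CPM at 5 weeks. Replicates 1 to 3 of the 2-week group lay below every 5-week mouse, and replicate 4 lay among them.

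At 5 weeks Selplg averaged 75.1 ± 13.3 CPM, against 42.0 ± 16.1 CPM at 2 weeks (SD, n = 4), a ratio of 1.79. The limma difference was 0.87 ± 0.23 (log2, SE; 95% interval 0.39 to 1.36) with an unadjusted p of 0.00189 and an adjusted p of 0.288, and the exact permutation p was 0.0571. Without 2-week replicate 4 the difference was 1.10 and passed (limma adjusted p = 0.0175), in a comparison that then called 386 of 15563 genes (2.48%). It also passed when libraries were weighted by quality (0.96, limma adjusted p = 0.0189), with 5.66% of genes called. Against the controls, Selplg differed by 0.48 ± 0.23 at 5 weeks (interval -0.01 to 0.96, limma adjusted p = 0.581), and 3 of 4 treated mice exceeded every control. At 2 weeks it differed by -0.40 ± 0.23 (interval -0.88 to 0.09, limma adjusted p = 0.596). That 2-week difference was -0.63 without 2-week replicate 4 and -0.26 without 2-week replicate 1, and the 5-week difference was 0.32 without control replicate 3, with no call.

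Selplg was set beside the pan-leukocyte markers of each library. The 2-week replicate 4, high in Selplg, was the 2-week library with the most pan-leukocyte signal, and control replicate 3, low in Selplg, was the control with the least. At 5 weeks the order differed. Replicate 3 had the most pan-leukocyte signal (1424 CPM, against 1212 CPM in replicate 4), whereas Selplg was highest in replicate 4 (88.3 CPM, against 83.5 CPM in replicate 3). All 10 pan-leukocyte genes had a positive difference at 5 against 2 weeks, with a median of 0.76 on the log2 scale, against 0.0007 over all genes tested, and 0 were called. Relative to the mean of these genes, Selplg differed by 0.15 at 5 against 2 weeks (exact permutation p = 0.171, limma adjusted p = 0.596, where 81.7% of all genes were called on that scale) and by -0.04 at 5 against 0 weeks (exact permutation p = 0.714). At 2 against 0 weeks the relative value was -0.19 and the groups did not overlap (exact permutation p = 0.0286, limma adjusted p = 0.82), as for 0.353% of all genes on that scale, of which limma called 0.045%. The gap was narrow: the highest 2-week library stood at -0.194 and the lowest control at -0.189. With the median in place of the mean of the list, the exact permutation p was 0.114. The part of leukocyte content in the Selplg values was not tested.

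**Figure D3:**
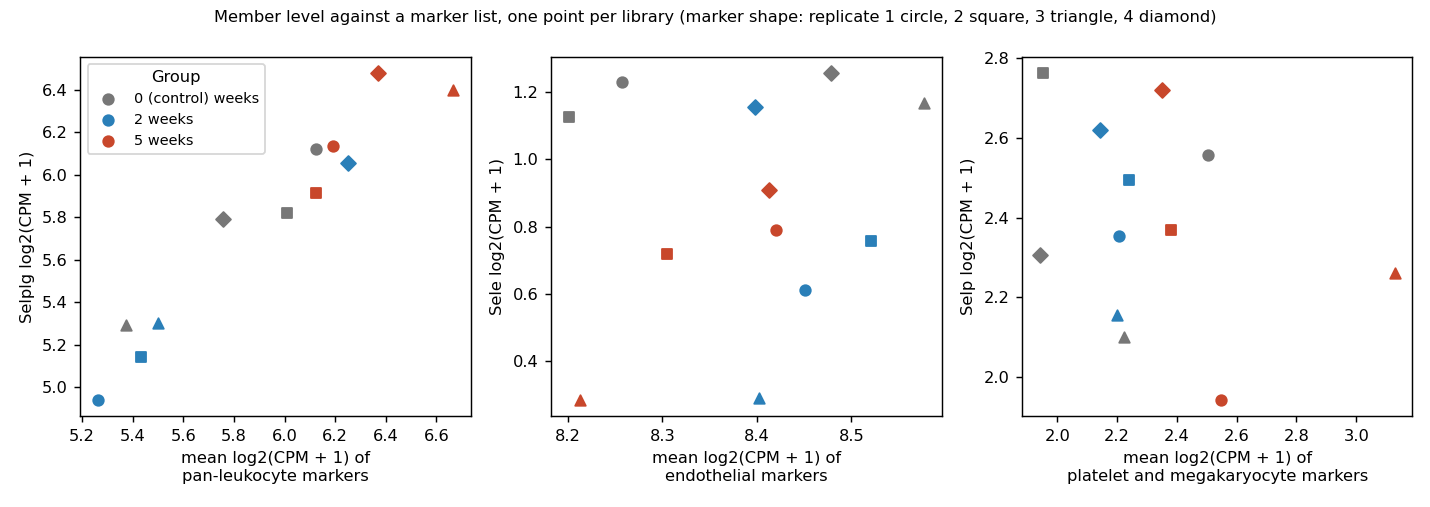
Level of Selplg, Sele and Selp in each library (log2(CPM + 1), y) against the mean of pan-leukocyte, endothelial and platelet markers (x), coloured by group. In the Selplg panel, 2-week replicate 4 (blue diamond) lies among the 5-week mice. Sele at 5 weeks lies below the controls, within the same range of endothelial levels.

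Icam1 encodes ICAM-1, the ligand of the leukocyte integrins LFA-1 and Mac-1 (chromosome 9, 20927281 to 20940113). It had 521, 486, 515 and 562 CPM in the controls, 524, 489, 446 and 534 CPM at 2 weeks, and 555, 541, 498 and 580 CPM at 5 weeks. Every group overlapped the others. Its limma difference was -0.07 (95% interval -0.23 to 0.10, adjusted p = 0.787) at 2 against 0 weeks, 0.06 (-0.11 to 0.23, adjusted p = 0.827) at 5 against 0 weeks and 0.13 (-0.04 to 0.29, adjusted p = 0.591) at 5 against 2 weeks. The last interval reaches no further than 0.29 on the log2 scale. Relative to the endothelial markers, Icam1 was higher by 0.23 at 5 than at 2 weeks with no overlap (exact permutation p = 0.0286, limma adjusted p = 0.494), as for 6.79% of all genes on that scale, and with the median of the list the p was 0.0571. The endothelial list itself was lower in this comparison, with 2 of 20 genes higher and a median of -0.12. The relative value therefore also holds a change of the reference. The table also lists a lncRNA on the other strand, Gm47079, which overlaps the end of Icam1 and averaged 0.244 CPM; without a stated strand setting, reads of the shared stretch cannot be assigned to one of them.

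Icam2 encodes ICAM-2, present on resting endothelium and platelets (chromosome 11, 106268482 to 106278901). It had 165, 157, 201 and 180 CPM in the controls, 184, 186, 169 and 173 CPM at 2 weeks, and 194, 175, 204 and 178 CPM at 5 weeks. All treated mice but 1, a 5-week mouse at 204 CPM, lay inside the range of the controls. The differences were 0.02 (95% interval -0.15 to 0.20, adjusted p = 0.935) at 2 weeks and 0.10 (-0.08 to 0.28, adjusted p = 0.728) at 5 weeks, each against 0 weeks in limma. The first turned to -0.03 without control replicate 2, -0.01 without control replicate 1 and -0.004 without the 3 libraries named above. The second was 0.05 without control replicate 2, 0.06 without 5-week replicate 3, 0.17 without control replicate 3 and 0.01 without those 3 libraries.

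Vcam1 encodes VCAM-1, the ligand of the integrin VLA-4, which is induced by cytokines on endothelium (chromosome 3, 115903598 to 115923337). It had 96.2, 81.9, 92.2 and 85.3 CPM in the controls, 74.0, 81.1, 79.4 and 101 CPM at 2 weeks, and 83.0, 93.4, 83.1 and 88.0 CPM at 5 weeks. At 2 weeks, 3 mice were below every control and replicate 4 was above every control. The limma difference was -0.09 (95% interval -0.29 to 0.11, adjusted p = 0.755) at 2 against 0 weeks and -0.03 (-0.23 to 0.17, adjusted p = 0.928) at 5 against 0 weeks. Without 2-week replicate 4 the first was -0.18, with an adjusted p of 0.303, and without control replicate 1 the second was 0.01.

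Pecam1 encodes PECAM-1, or CD31, the homophilic adhesion molecule of endothelial junctions, also present on platelets and leukocytes (chromosome 11, 106545043 to 106641454). It was the most abundant member and had 832, 769, 877 and 920 CPM in the controls, 826, 846, 802 and 851 CPM at 2 weeks, and 886, 861, 729 and 878 CPM at 5 weeks. The 5-week replicate 3 was the lowest of all 12 libraries. The limma difference was -0.03 (95% interval -0.20 to 0.15, adjusted p = 0.915) at 2 weeks and -0.02 (-0.20 to 0.16, adjusted p = 0.951) at 5 weeks, each against 0 weeks. Without 5-week replicate 3 the 5-week difference was 0.05, and with library weights 0.06. Without control replicate 4 the differences were 0.01 at 2 weeks and 0.02 at 5 weeks.

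**Figure D4:**
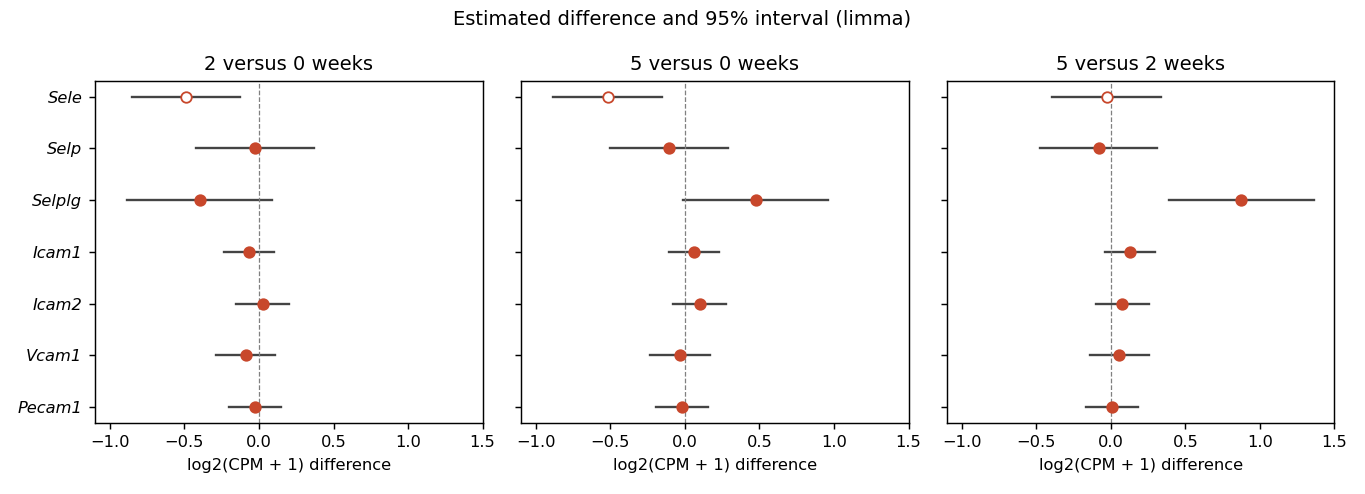
Difference in log2(CPM + 1) of each gene in the 3 comparisons (points) with its 95% interval from limma (lines); the open point, Sele, comes from the fit with no filter on low values. The intervals of Icam1, Icam2, Vcam1 and Pecam1 include 0 in every panel; those of Sele lie below 0 against the controls and that of Selplg lies above 0 at 5 against 2 weeks, before adjustment for all genes.

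On the leukocyte side, the integrins and other counter-receptors had the largest median shift of the partner lists. Of 13 tested genes, 1 had a positive difference at 2 against 0 weeks, 10 at 5 against 0 weeks and 10 at 5 against 2 weeks, with medians of -0.16, 0.41 and 0.69 on the log2 scale. Over all genes tested, 55.1%, 55% and 50.2% were positive, with medians of 0.02, 0.02 and 0.0007. None of the 13 was called. Itgal, the LFA-1 alpha chain that binds ICAM-1, averaged 68.4 ± 4.64 CPM at 5 weeks, against 35.6 ± 16.4 CPM at 2 weeks (SD, n = 4; limma adjusted p = 0.288). Cd44, a hyaluronan receptor that can also carry selectin ligands, averaged 155 ± 11.2 CPM at 5 weeks, against 106 ± 25.3 CPM at 2 weeks (limma adjusted p = 0.288).

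Cd177, a neutrophil surface protein that binds PECAM-1, had the smallest p of this list against the controls. It stood at 5.67 to 9.43 CPM at 5 weeks, against 2.56 to 4.03 CPM in the controls (limma 0.80 ± 0.15, adjusted p = 0.215). At 2 weeks it stood at 4.54 to 5.20 CPM, against 2.56 to 4.03 CPM in the controls (0.39 ± 0.15, limma adjusted p = 0.463). The groups did not overlap in either comparison, as for 3.65% of genes at 5 weeks and 3.37% at 2 weeks in the same direction. At 2 weeks the gene next to it in p was Itgax, the CD11c integrin chain, at -0.57 ± 0.25 (limma adjusted p = 0.511). Without 2-week replicate 4, 9 of the 13 genes passed at 5 against 2 weeks, all higher, among them Itgb2, Itgal, Itgam and Itga4, where 2.48% of all genes were called. The same setting called 9 of the 10 pan-leukocyte genes, and the part of leukocyte content in these values was not tested.

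Genes that build selectin ligands had small differences. Of 11 tested glycosyltransferases, sulphotransferases and transporters, 6 were higher at 2 against 0 weeks and 7 at 5 against 0 weeks, with medians of 0.003 and 0.09, and none was called. Tpst2 and Tpst1 sulphate tyrosines such as those of PSGL-1, and St3gal4 adds sialic acid. At 2 weeks Tpst2 differed by -0.15 ± 0.07 and St3gal4 by 0.16 ± 0.08, with limma adjusted p-values of 0.525 and 0.557. At 5 weeks St3gal4 differed by 0.17 ± 0.08 and Tpst1 by 0.13 ± 0.07, with limma adjusted p-values of 0.575 and 0.642. Between 5 and 2 weeks Tpst1 differed by 0.22 ± 0.07 and Fut7, a leukocyte fucosyltransferase, by 0.32 ± 0.21, with limma adjusted p-values of 0.303 and 0.619.

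Other endothelial adhesion and junction genes had medians near 0. Of 15 tested genes, 8 were higher at 2 weeks and 8 at 5 weeks, each against 0 weeks, with medians of 0.01 and 0.004, and none was called. Madcam1 was not among the genes of the table. Mcam, the adhesion molecule CD146 of vessel walls, averaged 243 ± 21.4 CPM at 5 weeks, against 294 ± 27.4 CPM in the controls (SD, n = 4; -0.27 ± 0.08, limma adjusted p = 0.512). At 2 weeks it averaged 254 ± 13.6 CPM, against the same controls (-0.21 ± 0.08, limma adjusted p = 0.473). Jam2, a junctional adhesion molecule, differed by -0.22 ± 0.11 at 2 weeks (limma adjusted p = 0.545) and Ocln, which encodes occludin, by 0.11 ± 0.07 at 5 weeks (limma adjusted p = 0.677). Between 5 and 2 weeks the smallest p-values were those of F11r, junctional adhesion molecule A, at -0.17 ± 0.08 (limma adjusted p = 0.494), and Cd47, at 0.10 ± 0.06 (limma adjusted p = 0.608), with 5 of 15 genes higher and a median of -0.02.

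Among 14 tested inducers of adhesion molecules and genes of the NF-kB circuit, 5 were higher at 2 against 0 weeks and 10 at 5 against 0 weeks, with medians of -0.05 and 0.08, and none was called. The cytokine gene Il1b had the largest difference, 1.14 ± 0.39 at 5 against 0 weeks (limma adjusted p = 0.521), next to Tnfrsf1b, a TNF receptor, at 0.35 ± 0.18 (limma adjusted p = 0.597). At 2 weeks the IL-1 receptor accessory gene Il1rap stood at -0.20 ± 0.10 and Il1a at -0.27 ± 0.15, with limma adjusted p-values of 0.549 and 0.596. Between 5 and 2 weeks Il1b differed by 1.51 ± 0.39 and Tnfrsf1b by 0.65 ± 0.18 (limma adjusted p = 0.288 for each). Both passed without 2-week replicate 4, where 2.48% of all genes, 7 of 10 neutrophil markers and 9 of 10 pan-leukocyte markers were called. With all libraries, neutrophil markers had a positive difference in 10 of 10 tested genes at 5 against 0 weeks and in 9 at 5 against 2 weeks, with medians of 0.93 and 1.41 on the log2 scale, and monocyte markers had medians of 0.55 and 0.63. Summed neutrophil markers stood at 139 to 389 CPM at 5 weeks, 63.6 to 168 CPM at 2 weeks and 76.3 to 217 CPM in the controls, and Camp alone of the list was at 0 in any library. Summed monocyte markers stood at 2163 to 2635 CPM at 5 weeks, 1987 to 2467 CPM at 2 weeks and 2217 to 2487 CPM in the controls, with none at 0. Most of that sum was Ace, with means of 1379 CPM at 5 weeks, 1457 CPM at 2 weeks and 1520 CPM in the controls. Chil3, also on the alveolar macrophage list, averaged 447, 263 and 398 CPM in the same order. The sum therefore does not measure monocytes alone. The part of neutrophils and monocytes in the Il1b and Tnfrsf1b values was not tested. Sele, Icam1 and Vcam1, which such cytokines induce in endothelium, stood at -0.52, 0.06 and -0.03 in the 5-week mice relative to the controls, none of them called.

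**Figure D5:**
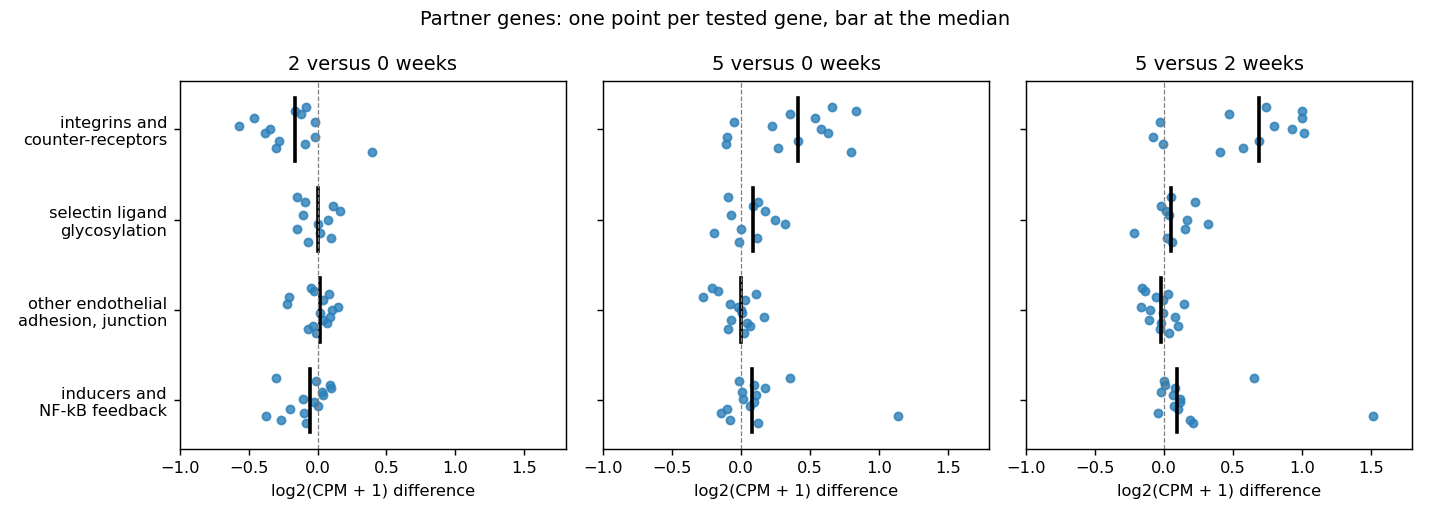
Difference in log2(CPM + 1) of every tested gene of 4 partner lists (points) in the 3 comparisons, with the list median (bar). Integrins and counter-receptors have medians of -0.16, 0.41 and 0.69, while the other 3 lists have medians between -0.05 and 0.09.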

How the data were processed

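Whole-lung RNA of 12 mice was sequenced. Expression came as CPM per gene, deposited by the authors as one table in which 0.0001 had been added to each value. Per the submitters' processing notes, TopHat2, Partek and mm10 were used; which annotation and strand setting served for counting is not stated. Gene positions in the table differ from those of GRCm38 (mm10) for the members, so they are not on the same coordinates as the promoter windows. Positions are printed as the table gives them. Low values lay on steps of one read for 87.9% to 88.9% of cases (within 0.1 of a step), too few to recover counts, so no count model was fitted, read numbers are approximate and no counting interval is given.

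Differences were fitted to log2(CPM + 1), keeping 15562 genes that averaged 1 CPM or more. Limma 3.58.1 (R 4.3.3) fitted the 3 group means over all 12 libraries with trended, moderated variances, after a check on simulated data. Benjamini-Hochberg adjusted p-values were read at 0.05. Level relative to a marker list was the log2 value minus the list mean of that library; 27 such comparisons and 21 of single members were tested by exact permutation, the 27 also with limma over all genes. Python 3.11.15 and scipy 1.17.1 served for the rest. Members, lists and tests were chosen with earlier results of these data known. The text names all members, genes of the partner lists past the threshold or otherwise with the 2 smallest p-values in a comparison, and the 3 genes closest in profile to each member; a few genes that this rule names are not reported here. Itgb2, Itgam and Itga4 were named after their values were seen. Replicates were numbered in accession order and pair nothing.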

Additional observations from a re-analysis of the deposited data

Results flagged for a closer look

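In the 5-week group, Pecam1 of replicate 3 stood apart from its group, at 9.511 on the log2(CPM + 1) scale. It had 729 CPM, against 861 to 886 CPM in the other 3 libraries of the group. It was the only 1 of 60 groups of 4 examined in which the gap of an extreme library to its nearest neighbour, divided by the range, exceeded Dixon's 95% critical value, and chance flags about 1 in 20. The same library had the lowest mean of endothelial markers in its group (8.21, against 8.30 to 8.42) and the highest summed red cell genes (16211 CPM, against 1509 to 4490 CPM). Their part in the Pecam1 value was not tested.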

How the results depend on the processing

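Of 453 member differences recomputed under alternative settings, 451 stayed on the same side of the threshold, and the other 2 were Selplg at 5 against 2 weeks. Members called at 5 against 2 weeks were 0 to 1 when single libraries were left out and 1 with library weights. Genes called at 2 against 0 weeks were 18 with library weights and 0 to 24 when single libraries were left out (24 without 5-week replicate 3, 1 without control replicate 1). At 5 against 0 weeks they were 0 to 1 (1 without control replicate 1). At 5 against 2 weeks they were 881 with library weights and 0 to 386 when single libraries were left out (386 without 2-week replicate 4). The causes were not tested. Other pseudocounts, filters, scalings, robust moderation, pairwise fits and leaving out control replicate 2, 2-week replicate 3 and 5-week replicate 3 together called 0 genes in each comparison. The Sele difference at 5 against 0 weeks was -1.07 with a pseudocount of 0.1 and -0.16 with a pseudocount of 5, because its level is near the pseudocount. Sele has no value with a filter of 1 or 10 CPM, and Selp none with 10 CPM. No paired analysis was possible because the labels number each mouse separately and pair no libraries. About 7 reads in the lowest libraries limit Sele.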

Other observations

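The genes whose profiles over the 12 libraries lay closest to each member were found by the root-mean-square difference between standardised log2(CPM + 1) values, where 13703 protein-coding genes had a median of 1.363 from Selplg. Selplg had the closest neighbours of all 7 members: Fgr, a Src-family kinase of myeloid cells, at 0.171, and Igsf6 at 0.185. For Sele the closest were Rhoj, a small GTPase gene of endothelium, at 0.399, the endothelin receptor gene Ednra at 0.408 and the kinase gene Fyn at 0.415. For Vcam1 they were Tnfsf13b, the B cell survival factor BAFF, at 0.332, Macroh2a2 at 0.443 and Cd96 at 0.454. Selp lay closest to Tll1 (0.341), Lap3 (0.554) and Srgap3 (0.561). Icam1 lay closest to Ccpg1 (0.331), Plod3 (0.386) and the retinoic acid receptor gene Rara (0.418), and Icam2 to Ppp1cc (0.372), Sbds (0.398) and Snx3 (0.406). Pecam1 lay closest to Itpkb (0.328), Dync1li1 (0.329) and Pxn, which encodes paxillin (0.347). Among the members themselves the closest pair was Icam1 and Pecam1, at 0.772. Each member had genes outside the set nearer to it than any other member. This sets the smallest of 13703 distances against the smallest among 7 members, over 12 libraries. No chance level was computed, so the comparison does not show whether the members share a profile.

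Of 10 cytoskeletal and signalling anchors of adhesion molecules, 4 were higher at 5 against 0 weeks, with a median of -0.05 (log2), and none was called. The marker lists for alveolar type 1 cells, where Icam1 is abundant, had medians of 0.05 at 2 and 0.04 at 5 against 0 weeks.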
